A study of Arabidopsis thaliana with 6 samples.

Results

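IBH1, IBL1 and AIF1 to AIF4 form a small family of Arabidopsis atypical helix-loop-helix (HLH) genes. The 6 genes were chosen by their locus tags, out of 33518 genes in the larger deposited table. RNA-seq was done on whole Col-0 seedlings at 5 days of age, raised under constant light, in 3 groups of 2 libraries. PRE1-Ox/IBH1-Ox seedlings, called the double line here, carried both 35S:IBH1-myc and 35S:PRE1-YFP. IBH1-Ox seedlings carried 35S:IBH1-myc alone, and wild-type seedlings carried neither transgene. The 35S promoter drives expression in most plant cells, and the labels do not say how many independent lines were used. One deposited table compared the double line with IBH1-Ox and held all 6 genes, and the other compared IBH1-Ox with wild type and held 4 of them.

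HLH proteins pair through their helices. Typical basic HLH (bHLH) proteins also bind DNA through a basic region, whereas IBH1, its paralog IBL1 and the AIF proteins are atypical and are known to pair with DNA-binding bHLH activators and hold them off DNA. PRE proteins are still smaller HLH proteins that bind IBH1 and the AIFs in turn, so that PRE proteins favour cell elongation and IBH1, IBL1 and AIFs restrain it. The AIFs were named as interactors of ATBS1, which is PRE3, a factor found in a screen on brassinosteroid signalling.

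The deposited tables give normalized counts, which are gene read counts divided by a size factor per library and averaged over the libraries of a group by the authors. The whole reads of each library were read back from those means. Over genes, the libraries held 9708398 and 8153761 such reads in the double line and 14205738 and 12447329 in IBH1-Ox, and for the genes of the smaller table alone 1293664 and 880063 in wild type. Log2 ratios of one library to the other, over genes with 200 or more reads in the 2 libraries together, had an SD of 0.133 in the double line and 0.153 in IBH1-Ox. Over the genes of the smaller table the SD was 0.186 in IBH1-Ox and 0.19 in wild type. The labels do not say whether both libraries of a group came from separately grown seedlings. The p-values therefore cover the spread between these samples alone, and that spread may be technical. Seedling markers were present in both transgenic groups: the normalized counts of 2 shoot markers summed to 424538 in the double line and 435449 in IBH1-Ox, and those of 5 root markers to 2064 in the double line and 2037 in IBH1-Ox. Both shoot markers passed the authors' test between these groups (CAB1 lower and RBCS1A higher in the double line), and no root marker did. In IBH1-Ox against wild type, 2 of the 5 root markers were listed and none of the others, both higher: SMB at 48.9 in IBH1-Ox and 22.4 in wild type, and EXPA7 at 287 in IBH1-Ox and 178 in wild type. Markers that a seedling should lack summed to 14.8 in the double line and 12.1 in IBH1-Ox for 3 flower genes. For 2 seed storage genes the sums were 361 in the double line and 1166 in IBH1-Ox, with no call for either gene (adjusted p = 0.642 for CRA1 and 0.364 for CRU3 in the authors' deposited table). The part of these organs and stages in the results below was not tested. In whole seedlings, fewer cells that express a gene and less RNA per cell cannot be told apart.

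The family members are compact genes spread over 4 of the 5 nuclear chromosomes. In the RefSeq annotation of TAIR10.1, IBH1 (AT2G43060) lies at chr2:17909007-17910210 on the plus strand, IBL1 (AT4G30410) at chr4:14870984-14872267 on the minus strand and AIF1 (AT3G05800) at chr3:1727151-1728365 on the plus strand. AIF2 (AT3G06590) lies at chr3:2052693-2055666 on the minus strand, AIF3 (AT3G17100) at chr3:5831136-5832733 on the plus strand and AIF4 (AT1G09250) at chr1:2989141-2990427 on the plus strand. Each coding region sits in 1 exon, and its product runs from 156 residues for IBH1 over 180 for IBL1, 207 for AIF4, 211 for AIF1 and 221 for AIF2 to 230 for AIF3. Introns occur only in untranslated parts, in some transcripts of IBL1, AIF2 and AIF3. In translated coding regions, AIF2 and AIF3 were the closest pair (54.5% identical residues of those aligned), and pairs of AIFs ranged from 42.4% to 54.5%. IBH1 and IBL1 shared 35.7%, and IBH1 was nearest to AIF1 (39.1%). None of the coding 36-base stretches of the 6 genes occurs elsewhere in the nuclear genome, and at most 0.51% of exonic ones do (AIF2). The gene model of AIF2 overlaps that of AT3G06600, on the same strand, by 44 bases, and no other member overlaps a gene.

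**Figure D1:**
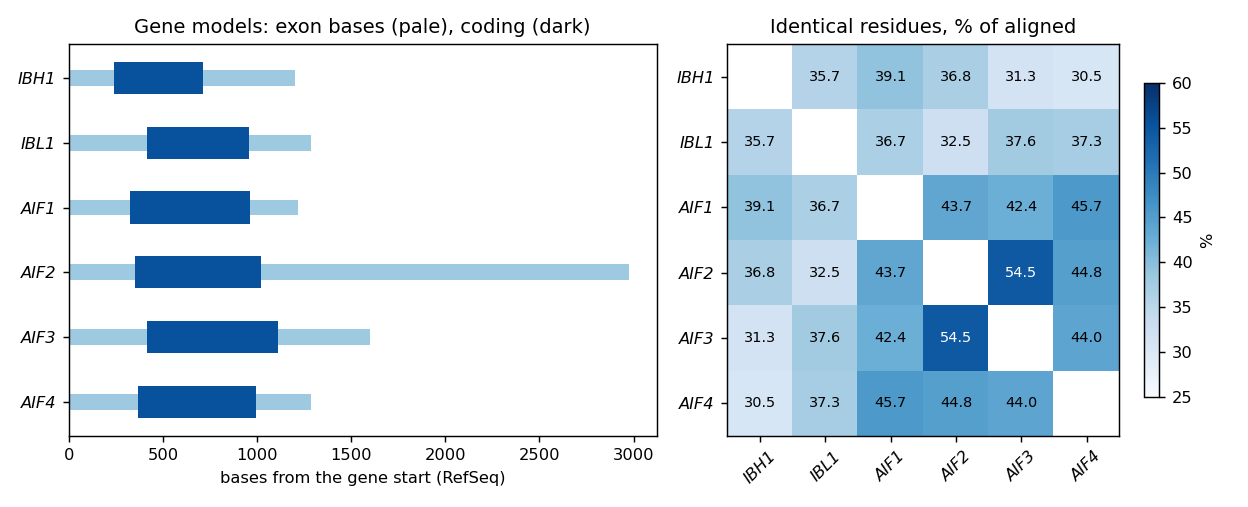
RefSeq gene models of the 6 genes in bases from the gene start, with all exon bases pale and coding bases dark (left), and the percent of identical residues among aligned residues for each pair of translated coding regions (right). Coding parts are similar in length, AIF2 has the longest gene model, and AIF2 with AIF3 is the closest pair at 54.5%.

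IBL1, AIF1 and AIF4 were the members that passed the test in opposite directions in the 2 comparisons, so the 250 bases upstream of their annotated starts are shown, 5′ to 3′ on the gene's strand, from the RefSeq TAIR10.1 genome. Over all tested genes, 3.03% were listed as lower in IBH1-Ox and 12.7% were called higher in the double line. The share that did both is not given here, and both comparisons use the same IBH1-Ox libraries. Capitals mark the E-box CANNTG, the core to which bHLH proteins bind. The windows are chr4:14872268-14872517 (minus strand) for IBL1, chr3:1726901-1727150 (plus strand) for AIF1 and chr1:2988891-2989140 (plus strand) for AIF4.
IBL1: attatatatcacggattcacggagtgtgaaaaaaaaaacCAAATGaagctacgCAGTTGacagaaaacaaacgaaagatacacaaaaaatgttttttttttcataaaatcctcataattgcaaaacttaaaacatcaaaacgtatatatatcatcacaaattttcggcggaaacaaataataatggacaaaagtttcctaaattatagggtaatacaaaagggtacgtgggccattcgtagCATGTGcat
AIF1: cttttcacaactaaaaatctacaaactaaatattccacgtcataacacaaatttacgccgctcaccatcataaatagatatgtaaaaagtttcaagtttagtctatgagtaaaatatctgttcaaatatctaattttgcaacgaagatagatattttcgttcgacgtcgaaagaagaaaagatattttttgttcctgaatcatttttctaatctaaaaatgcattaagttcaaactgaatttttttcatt
AIF4: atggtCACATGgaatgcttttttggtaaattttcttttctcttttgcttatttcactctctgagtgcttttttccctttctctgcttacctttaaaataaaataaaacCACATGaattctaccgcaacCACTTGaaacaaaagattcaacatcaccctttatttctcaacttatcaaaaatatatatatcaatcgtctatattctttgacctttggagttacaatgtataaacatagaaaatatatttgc
The IBL1 and AIF4 windows hold 3 E-boxes each and the AIF1 window holds 0. Over 27443 nuclear protein-coding genes, a window of this length, searched on both strands, holds a median of 1. At least 1 is in 55.3% of those windows, and the share with 3 or more is not given here. The windows of the other members, not shown, hold 0 (IBH1 and AIF2) or 1 (AIF3). The G-box CACGTG, itself an E-box, is in none of the 3 windows shown and in 6.49% of all windows. The brassinosteroid response elements CGTGTG and CGTGCG are also in none of the 3, against 6.71% of all windows. A match here is a run of letters and not a known binding site.

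The first question is what happened to the family in seedlings that overexpress 1 of its members. IBH1 itself was high in IBH1-Ox by design, at 11790 and 12997 normalized counts in IBH1-Ox, against 179 and 138 in wild type. The authors' deposited table put the ratio at 78.2-fold (log2 6.29, adjusted p = 2.03e-118). Reads from the transgene and from the resident gene cannot be told apart in a count per gene. The wild-type level of IBH1 rested on 348 reads in both libraries together.

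AIF1 fell the most of the 3 members listed as lower in IBH1-Ox. It stood at 110 and 123 normalized counts in IBH1-Ox, against 344 and 303 in wild type. Both IBH1-Ox libraries were below both wild-type libraries, and the ratio between single libraries ranged from 0.321 to 0.406. Genes enter this table only past limits on adjusted p and on fold, which favours such separation. The share of listed genes that show it is not given here, so it is not separate evidence of a difference. In the authors' deposited table the log2 fold change was -1.47 (adjusted p = 1.88e-22), and among the 750 genes listed as lower 185 had a more negative one.

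AIF4 also fell, to 210 and 188 normalized counts in IBH1-Ox, against 379 and 360 in wild type. The libraries of the groups did not overlap, and the authors' deposited table gave a log2 fold change of -0.89 with an adjusted p of 3.31e-10. IBL1 fell by less, to 102 and 93.5 normalized counts in IBH1-Ox, against 151 and 157 in wild type. Its libraries did not overlap between groups either, and its log2 fold change in the authors' deposited table was -0.66 (adjusted p = 0.00203). That is a 0.635-fold level, close to the fold of 1.5 in either direction that the table requires. The lack of overlap for AIF4 and IBL1 is favoured by the same entry limits, so it is not separate evidence of a difference either.

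AIF2 and AIF3 were not in the IBH1-Ox against wild type table. Genes enter that table only past an adjusted p of 0.05 and a 1.5-fold difference, so their absence does not show that they did not differ, and they have no wild-type value here. Of the 6 genes, 3 were thus listed as lower (IBL1, AIF1 and AIF4) and 1 as higher (IBH1). In the whole comparison 6.24% of 24779 tested genes were listed, 3.03% as lower and 3.22% as higher, the number tested being that implied by the p-values and adjusted p-values in the table. With a limit of 2-fold, AIF1 was the member left among the lower ones.

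**Figure D2:**
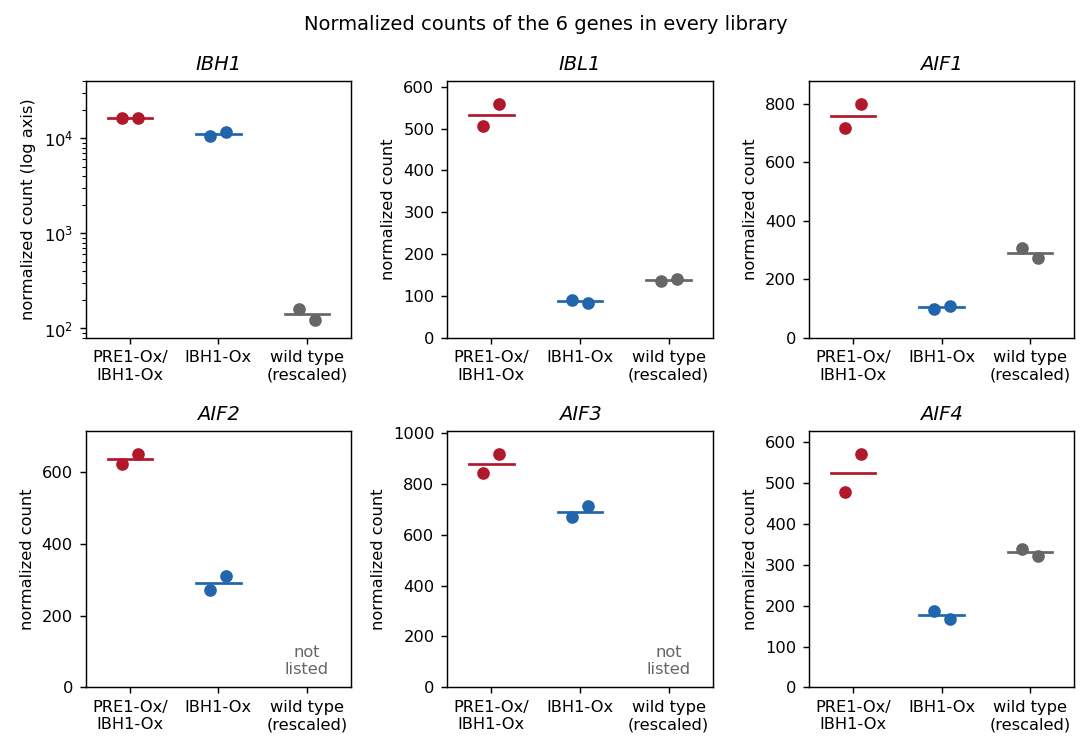
Normalized counts of each gene in every library (points) with group means (lines), for the double line, IBH1-Ox and wild type, where wild type was rescaled to the other table. IBH1 has a log axis and the other genes linear axes from 0; IBL1, AIF1 and AIF4 are lowest in IBH1-Ox and highest in the double line, and AIF2 and AIF3 have no wild-type value.

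The second question is how the family differed between the double line and IBH1-Ox, where IBH1 was already high. IBH1 itself was also higher in the double line. Added PRE1, the IBH1 level and the line itself cannot be told apart here. All 6 genes were higher in the double line than in IBH1-Ox, each past the authors' test, where 22.5% of 24451 tested genes were called and 12.7% were higher. The increase ran from 1.27-fold for AIF3 to 7.25-fold for AIF1 in the authors' deposited table. The log2 fold changes with SE are from a limma-voom fit to those recovered reads, in which all 6 genes were also higher. That fit called 38.7% of 19586 genes, and 21.2% were called higher.

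AIF1 rose the most, to 717 and 798 normalized counts in the double line, against 98.7 and 110 in IBH1-Ox. Its limma-voom log2 fold change was 2.85 ± 0.12 (SE, 2 libraries per group, adjusted p = 1.11e-14). Of 20012 genes with a mean of 10 or more, 50 had a larger log2 fold change in the deposited means. IBL1 was next, at 505 and 558 normalized counts in the double line, against 91.0 and 83.7 in IBH1-Ox. That was a limma-voom log2 fold change of 2.59 ± 0.13 (adjusted p = 2.43e-13), exceeded by 60 genes in the deposited means. The AIF1 and IBL1 changes differed by 0.26 on the log2 scale with a combined SE of 0.18, so their order is not resolved. IBL1 rests on 617 reads in the double line and on 171 in IBH1-Ox, where it had the fewest of the 6 genes.

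AIF4 and AIF2 rose by smaller amounts. AIF4 had 478 and 571 normalized counts in the double line, against 188 and 168 in IBH1-Ox, a limma-voom log2 fold change of 1.54 ± 0.11 (adjusted p = 1.41e-10). Its double-line libraries were the least alike of the 6 genes, with a ratio of 1.19 between them. AIF2, also known as RITF1, had 622 and 650 normalized counts in the double line, against 270 and 309 in IBH1-Ox. Its limma-voom log2 fold change was 1.14 ± 0.091 (adjusted p = 6.72e-10). The AIF4 and AIF2 changes differed by 0.40 with a combined SE of 0.14. Together with AIF1 and IBL1, these made 4 of 6 genes that were at least 2-fold higher in the authors' deposited table, against 2.31% of all tested genes.

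AIF3 changed the least. It stood at 841 and 916 normalized counts in the double line, against 670 and 711 in IBH1-Ox. The limma-voom log2 fold change was 0.35 ± 0.073 (adjusted p = 0.000542). In the authors' deposited table its adjusted p was 0.0122, so it would miss a threshold of 0.01. Among genes with a mean of 10 or more, 3576 had a larger log2 fold change than AIF3.

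IBH1 was higher as well, although both groups carried the same transgene by label. It had 16541 and 16523 normalized counts in the double line, against 10551 and 11629 in IBH1-Ox. Its limma-voom log2 fold change was 0.58 ± 0.042 (adjusted p = 1.37e-10), a 1.49-fold difference. The SD between libraries was 13.0 normalized counts in the double line and 762 in IBH1-Ox. Whether the transgene or the resident gene gave the added reads was not tested. PRE1, the second transgene, stood at 8465 and 8344 normalized counts in the double line, against 126 and 135 in IBH1-Ox (log2 fold change 6.01 ± 0.098, limma-voom adjusted p = 6.01e-22).

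**Figure D3:**
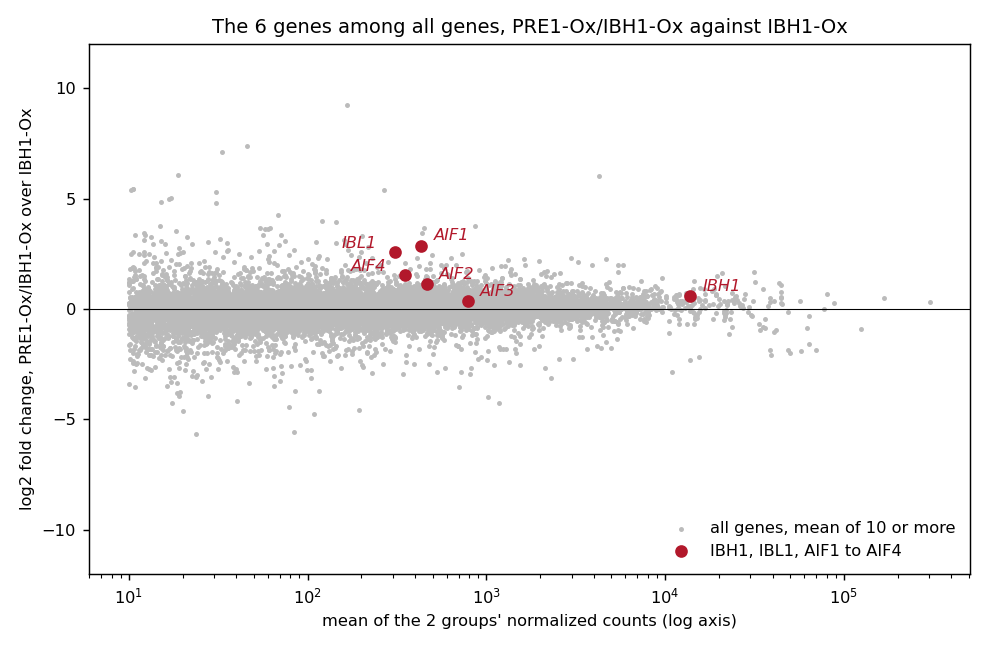
Log2 fold change of the double line over IBH1-Ox against the mean of the group means (log axis) for 20012 genes with a mean of 10 or more, with the 6 genes in red. All 6 lie above 0, and AIF1 and IBL1 lie near the upper edge of genes of their level, at 2.86 and 2.60 in the deposited means.

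Over the 6 genes the median log2 fold change in the deposited means was 1.35, and over the other 5 without IBH1 it was 1.56, beside -0.0062 over the 20012 genes. The middle 90% of those genes lay between -0.82 and 0.79. IBH1 at 0.58 and AIF3 at 0.35 lay inside that span, and IBL1, AIF1, AIF2 and AIF4 above it. The pair that was closest in sequence, AIF2 and AIF3, did not share the size of its change: AIF2 rose 2.19-fold and AIF3 1.27-fold in the authors' deposited table. AIF1 and IBL1, whose changes differed by less than 2 combined SE, share 36.7% of aligned residues.

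**Figure D4:**
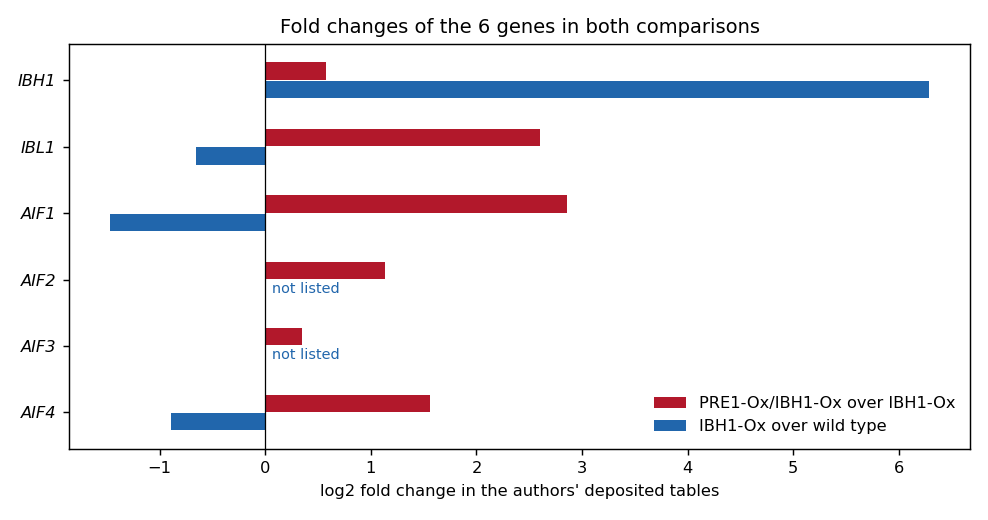
Log2 fold changes of the 6 genes in the authors' deposited tables, for the double line over IBH1-Ox (red) and IBH1-Ox over wild type (blue). IBL1, AIF1 and AIF4 have bars in both directions, IBH1 has both bars to the right, and AIF2 and AIF3 are not listed in the second of these comparisons.

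The tables share the IBH1-Ox libraries, so their fold changes are not independent of each other. For the 3 members listed as lower in IBH1-Ox, the level in the double line was also set beside wild type. The tables were normalized separately, and wild-type values were therefore divided by 1.12, the ratio of the IBH1-Ox size factors in both tables. No test was made across tables. IBL1 averaged 531 ± 37.3 normalized counts in the double line and 138 ± 3.72 in wild type on this scale (SD, n = 2 each), a ratio of 3.86. AIF1 averaged 757 ± 57.7 in the double line and 289 ± 25.6 in wild type, a ratio of 2.62. AIF4 averaged 525 ± 65.5 in the double line and 331 ± 12.5 in wild type, a ratio of 1.59. Between single libraries the ratio ran from 3.6 to 4.13 for IBL1, from 2.33 to 2.94 for AIF1 and from 1.41 to 1.77 for AIF4. Every double-line library thus stood above every wild-type library for these 3 genes. The share of other genes with such separation is not given here. IBH1 stood 117-fold above wild type in the double line, with single-library ratios from 103 to 134.

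Levels of different genes were compared per kb of the longest RefSeq transcript, as group means of normalized counts. In wild type, AIF4 stood at 257 per kb and AIF1 at 238 per kb, with overlapping libraries (250 to 264 and 223 to 253). IBH1 at 118 per kb and IBL1 at 107 per kb came below them and also overlapped (102 to 133 and 105 to 109). In untransformed seedlings IBH1 was thus below AIF4 and AIF1, and it stood at 0.196 times the sum of IBL1, AIF1 and AIF4.

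In IBH1-Ox the order was IBH1 at 9211 per kb, AIF3 at 432, AIF4 at 138, AIF2 at 102, AIF1 at 85.9 and IBL1 at 68.0. The libraries of each pair of neighbours in this order did not overlap. Some places depend on the transcript length used: with its shortest transcript AIF2 stood at 180 per kb, above AIF4, and IBL1 at 80.6 per kb, near AIF1. IBH1 was 11.1 times the sum of the other 5 members. In the double line the order was IBH1 at 13731 per kb, AIF1 at 623, AIF3 at 550, IBL1 at 414, AIF4 at 408 and AIF2 at 224, or 395 with its shortest transcript. There IBL1 and AIF4 overlapped (393 to 434 and 372 to 444), and AIF1 and AIF3 did not (590 to 657 and 526 to 574), although AIF3 with its shortest transcript stood at 580. By the longest transcripts, AIF1 was thus above IBL1 alone in IBH1-Ox and next to IBH1 in the double line. IBH1 was 6.19 times the sum of the other 5 members in the double line. Summed over IBL1, AIF1 and AIF4, the level was 1445 per kb in the double line, 292 in IBH1-Ox and 602 in wild type. PRE1 per kb was 0.715 times IBH1 per kb in the double line and 0.0166 times IBH1 in IBH1-Ox. Which parts of the transcripts the transgenes carry is not given in the sources used here, so levels per kb of IBH1 and PRE1 in the transgenic groups are approximate.

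**Figure D5:**
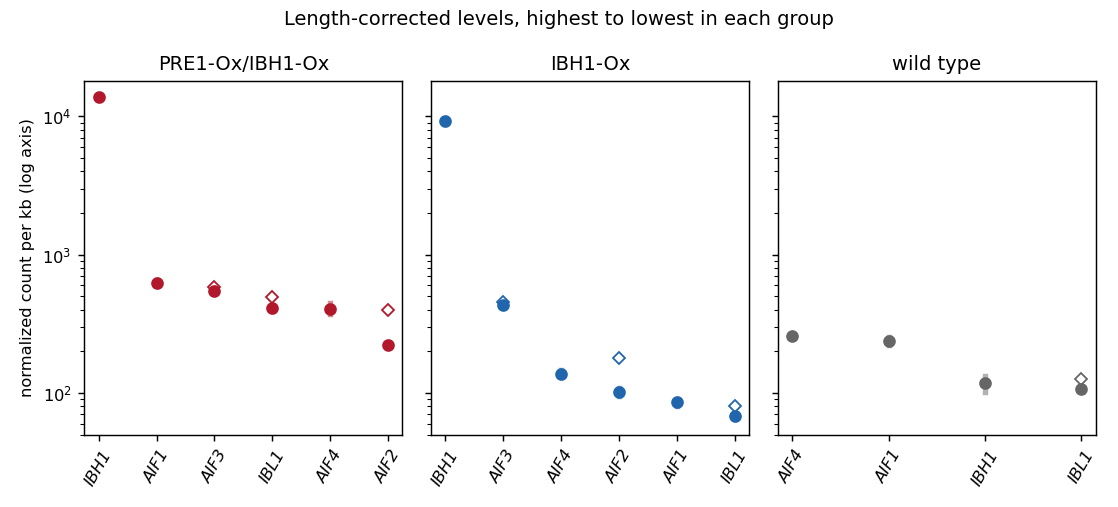
Normalized counts per kb of the longest RefSeq transcript (log axis), as group means (circles) with the span of both libraries (bars), ordered from high to low within the double line, IBH1-Ox and wild type; open diamonds use the shortest transcript. AIF1 comes next after IBH1 in the double line at 623 per kb and just above IBL1 in IBH1-Ox at 85.9 per kb.

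The HLH and bHLH genes around the family were described from a list of 28, of which 23 had reads. In the double line against IBH1-Ox, 4 were higher and 11 lower by the authors' test, while 12.7% of all tested genes were higher and 9.78% lower. Their median log2 fold change was -0.27 over the genes with reads in both groups, and -0.34 with PRE5 at its bound. Of the 6 PRE genes, PRE1 alone was higher and 4 were lower. Of 10 bHLH activators that IBH1 or AIF proteins are known to bind, or relatives of these, 0 were higher and 5 were lower, and 2 were listed at 0 in both groups. Of 8 other atypical HLH or bHLH genes 2 were higher and 0 lower, with 3 listed at 0. Of 4 upstream regulators 2 were lower, PIF4 and PIF5, and 1 was higher, BES1, which is named after its values were seen.

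PIF4, a bHLH factor that promotes elongation in warmth and shade, had the largest log2 fold change in size after PRE1 among genes of this list with reads in both groups. It stood at 112 and 113 normalized counts in the double line, against 603 and 597 in IBH1-Ox (limma-voom log2 fold change -2.41 ± 0.14, adjusted p = 1.56e-12). Its close relative PIF5 stood at 300 and 376 in the double line, against 1521 and 1530 in IBH1-Ox (log2 fold change -2.19 ± 0.093, limma-voom adjusted p = 8.44e-15). PRE2 fell to 11.05 and 3.76 in the double line, against 36.4 and 29.7 in IBH1-Ox (log2 fold change -2.14 ± 0.46, limma-voom adjusted p = 0.000691). The changes of PIF4, PIF5 and PRE2 lie close together for their SE, so their order is not resolved. PRE5 had 0 reads in both double-line libraries, against 8 and 10 reads (7.66 and 11.01 normalized counts) in IBH1-Ox, and was called lower (adjusted p = 0.0251 in the authors' deposited table). With a floor of 3 reads over the double-line group it was at least 3.63-fold lower, so its place beside PIF4 is not resolved. UPB1, a factor known to repress peroxidase genes in the root tip, rose to 211 and 263 in the double line, against 79.5 and 61.7 in IBH1-Ox (log2 fold change 1.72 ± 0.17, limma-voom adjusted p = 2.17e-08). HBI1, a known binding partner of IBH1 that promotes cell elongation, was chosen for mention after its values were seen. It stood at 1185 and 1196 in the double line, against 1905 and 1718 in IBH1-Ox (log2 fold change -0.61 ± 0.064, limma-voom adjusted p = 6.84e-08).

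In IBH1-Ox against wild type, 1 gene of this list was listed as higher and 2 as lower, beside 3.22% and 3.03% of tested genes. The other 25 were not listed. PRE1 was the higher one, at 140 and 151 normalized counts in IBH1-Ox, against 66.7 and 56.4 in wild type (log2 1.25, adjusted p = 6.68e-10 in the authors' deposited table). PIF4 stood at 673 and 667 in IBH1-Ox, against 1164 and 1184 in wild type (log2 -0.81, adjusted p = 9.82e-18 in the authors' deposited table). PAR2, an HLH factor known to restrain shade responses, stood at 84.6 and 99.7 in IBH1-Ox, against 163 and 167 in wild type (log2 -0.84, adjusted p = 7.29e-05 in the authors' deposited table). PAR2 was also among the genes called higher in the double line, with a limma-voom log2 fold change of 1.06 ± 0.16 (adjusted p = 1.5e-05).

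For IBL1, AIF1 and AIF4, the genes with the most similar pair of log2 fold changes were looked up among 1496 genes listed in both tables. Likeness was the straight-line distance between the pairs of deposited values, over 3 groups. Nearest to AIF4 was PDC2, a pyruvate decarboxylase of fermentation, at -0.89 for IBH1-Ox over wild type and 1.55 for the double line over IBH1-Ox (distance 0.0113). PRP4, a proline-rich cell wall protein gene, followed at -0.85 and 1.63 (distance 0.0795), then AT3G22142 (distance 0.0912). Nearest to AIF1 were AT5G22580 (distance 0.215), AT3G19620 (0.227) and HKT1, a sodium transporter gene, at -1.56 and 3.08 (distance 0.233). IBL1 had no neighbour as close: GASA14, a member of a gibberellin-regulated peptide family, lay at -0.65 and 2.23 (distance 0.374), AT1G68600 at a distance of 0.474 and the plantacyanin gene ARPN at 0.582. Of the 1496 genes, 30 others were at least as low in IBH1-Ox and as high in the double line as AIF1, 42 as IBL1 and 103 as AIF4.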

How the data were processed

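Total RNA of 6 seedling libraries was made into TruSeq libraries, per the labels' protocols. TopHat, DESeq and TAIR10 are named in the submitters' processing notes, with no version, and the counting tool is not given in the sources used here. For each comparison the authors deposited the group means of size-factor-normalized gene counts (a signal) and their ratio as a fold. P-values and adjusted p-values were deposited too. Log2 values of the deposited fold changes were computed here from the fold. The authors' test at an adjusted p below 0.05 set the calls.

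Group means were split into whole reads of 2 libraries, within the rounding of 10 significant digits. Exactly 1 pair was found for 100% of means in the IBH1-Ox against wild type table, and for 99.987% (double line) and 99.908% (IBH1-Ox) in the other. IBH1-Ox reads were equal in both tables for 1547 of 1547 genes. Libraries are told apart by size factor, not by sample number. The reads of the double line and IBH1-Ox, for 19586 genes with a mean of 10 or more once size factors were rescaled to a geometric mean of 1, were fitted with limma-voom (limma 3.58.1, R 4.3.3), using the authors' size factors and Benjamini-Hochberg adjustment. The splitting and the fit were tested on simulated data. The 5 summary entries that name no gene (12.5% of the summed signal in the double line and 15.1% in IBH1-Ox) were left out.

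Sequences and gene models come from RefSeq TAIR10.1, whose nuclear chromosomes are those of TAIR10. The members, lists and tests were chosen with earlier results of these data known. Named beside the members were PRE1 and up to 4 called genes of the list of 28 with the largest log2 fold change per comparison. Also named were PRE5 (called, with no fold) and the 3 genes nearest to a member in both fold changes. HBI1 and BES1 were named after their values were seen.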

Additional observations from a re-analysis of the deposited data

How the results depend on the processing

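For the double line against IBH1-Ox, 6 of 6 members were called higher with limma-voom in place of the authors' test. The same held with TMM scaling and without a filter on low means. When each of the 4 libraries was left out in turn, all 6 members kept their direction. Those fits leave 1 library in a group and assume that it varies like the others, so their calls are not used. Over all genes limma-voom called 7584 with every library. In the authors' test, an adjusted p limit of 0.01 left 5 members, and fold limits of 1.5 and 2 left 4. For single members in this comparison, 42 of 42 alternatives kept direction. The log2 fold change of AIF1 ran from 2.77 to 2.94, that of IBL1 from 2.52 to 2.67 and that of AIF3 from 0.29 to 0.41. In IBH1-Ox against wild type, a limit of 2-fold left 2 of the 4 listed members (AIF1 and IBH1) and 1 of the 3 listed genes of the wider list (PRE1), and for the double line against IBH1-Ox it left 8 of 15 called genes of that list. In IBH1-Ox against wild type, leaving out 1 of the 2 libraries of a group was done on the values without a test, and it put AIF1 between -1.56 and -1.38, AIF4 between -0.97 and -0.82 and IBL1 between -0.72 and -0.60. No paired analysis was possible because the recovered libraries carry no replicate number.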

Other observations

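The genes beside the family members on the chromosome were described for all 6 members, 1 on each side among loci in the larger table that do not overlap a member. Of these 12 genes, 1 was higher and 1 was lower in the double line against IBH1-Ox by the authors' test. In the IBH1-Ox against wild type table, 1 was listed. Over all tested genes, 12.7% were higher and 9.78% lower in the double line, and 6.24% were listed in IBH1-Ox against wild type. Beside IBL1, which rose 6.08-fold in the authors' deposited table, AT4G30400 stood at a mean of 337 normalized counts in the double line and 268 in IBH1-Ox (adjusted p = 0.0811), and UMAMIT34 at 94.9 and 74.3 in the same groups (adjusted p = 0.441). Beside AIF1, AT3G05810 stood at 142 in the double line and 119 in IBH1-Ox (adjusted p = 0.411). The gene that was higher, AT3G17110 beside AIF3, stood at 139 in the double line and 91.3 in IBH1-Ox (adjusted p = 0.0314). The gene that was lower, AT2G43050, lies 4563 bases from IBH1, at 177 in the double line and 292 in IBH1-Ox (adjusted p = 0.000348). SPPL3, 312 bases from IBH1 on the other side, stood at 782 in the double line and 829 in IBH1-Ox (adjusted p = 0.617). Both genes beside AIF4 were listed at 0 in both groups. These adjusted p-values are from the authors' deposited table.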
